A study of Mus musculus with 9 samples.

Results

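The 10 genes described here carry insulin and insulin-like growth factor (IGF) signals: the receptor genes Insr, Igf1r and Insrr, the ligand gene Igf1, the adaptor genes Irs1 and Irs2, and the kinase genes Pik3r1, Pik3ca, Akt1 and Akt2. They are 10 of 21779 protein-coding genes of the RefSeq table used. Each gene was taken with 2 kb on either side, and every listed chromatin interval overlapping that span by at least 1 bp was counted as a member interval. This gave 15 of the 38711 intervals listed for Gm4665 probes and 6 of the 9448 listed for LacZ probes. The group was chosen by a measured value, the high fold of an interval inside Insr, so that fold is given as a description with no test.

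The chromatin was that of testis germ cells from ICR mice, wild type and 35 days old. After cross-linking and sonication it was captured with biotinylated probes, either against the lncRNA Gm4665 or against LacZ for control, and input DNA was sequenced beside it. Each of the 3 groups has 3 replicates; sample titles name the captured RNA LncRNA-20, and whether each replicate is a mouse of its own is not labelled. No expression was measured, so the cell type could not be checked against marker genes, and library read totals were not used here. Fold below means the deposited fold enrichment of capture over input; the median fold in Gm4665 replicates 1, 2 and 3 was 11.4, 8.50 and 10.3 over the whole list.

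Insulin, IGF1 and IGF2 act through related receptor tyrosine kinases. The activated receptor phosphorylates insulin receptor substrate adaptors, which recruit phosphoinositide 3-kinase. The lipid product of this kinase brings AKT kinases to the membrane, and active AKT acts on growth, glucose use and FOXO transcription factors. In the testis this pathway is known for its role in sex determination and in the proliferation of Sertoli cells.

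Of the 10 genes, 6 had at least 1 Gm4665 interval: Igf1r had 7, Igf1 had 3, Insr had 2, and Pik3r1, Pik3ca and Akt1 had 1 each. Insrr, Irs1, Irs2 and Akt2 had none. Among all protein-coding genes, 39.3% had a Gm4665 interval in the same kind of span, and the share rose with gene length. It was 21% for genes under 25 kb, where 1 of 3 members (Akt1, not Insrr or Irs2) had an interval. It was 50.4% from 25 to 50 kb, where Akt2 had none, and 69.0% from 50 to 100 kb, where 3 of 4 members had one. It was 87.5% from 100 to 200 kb, the class of Insr, and 97.2% at 200 kb or more, the class of Igf1r. The member spans held 17.5 Gm4665 intervals per Mb, beside 17.1 per Mb over 20560 autosomal protein-coding genes, a ratio of 1.03; without Igf1r the ratio was 0.820. The number of intervals over the 10 genes was therefore close to that of protein-coding sequence in general.

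**Figure D1:**
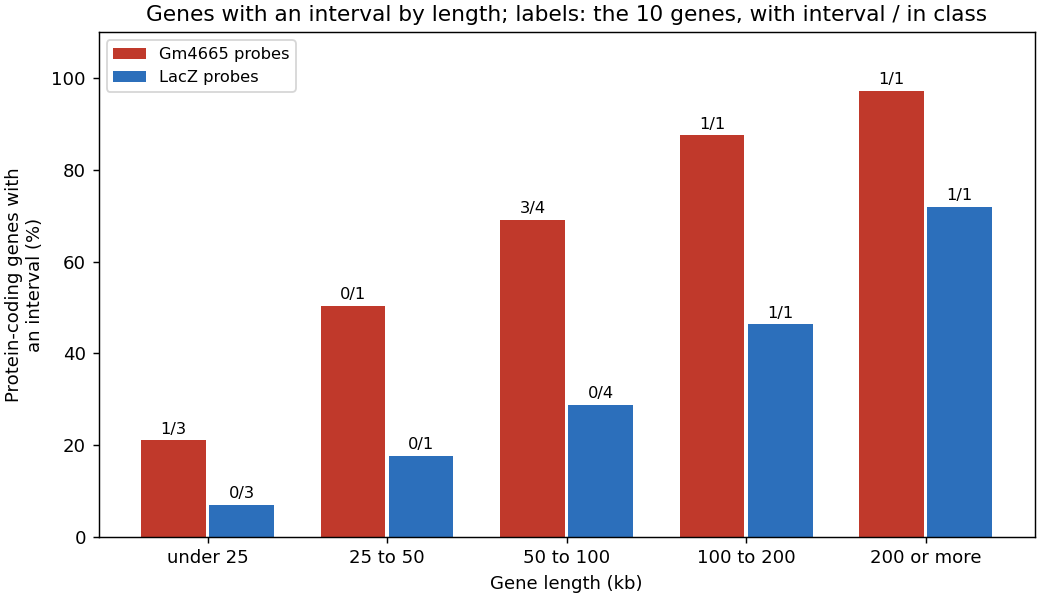
Share of protein-coding genes (%) with at least 1 interval in the gene with 2 kb flanks, by gene length in kb, for Gm4665 probes (red) and LacZ probes (blue). Labels above the bars give the number of the 10 genes with an interval over the number in that length class; the share climbs from 21% to 97.2% for Gm4665 probes and from 7.0% to 72.0% for LacZ probes.

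The stated interest of the series lies in regulatory regions, and these were searched first. Promoter windows of 250 bases before to 50 after a listed transcription start were held by RefSeq for 8 of the 10 genes, in 13 windows; Insr and Insrr were not among them. None of the 13 windows overlapped a Gm4665 or LacZ interval. Over all 32851 windows 1.80% overlapped a Gm4665 interval, so a count of 0 in 13 is near that background. The bases before the listed start are shown for the receptor gene with the most intervals and for the ligand gene, whose nearest interval came within 3458 bp of that start, with CG dinucleotides in capitals (RefSeq, GRCm38.p6, plus strand, chr7:67952007-67952256 and chr10:87860861-87861110).
Igf1r: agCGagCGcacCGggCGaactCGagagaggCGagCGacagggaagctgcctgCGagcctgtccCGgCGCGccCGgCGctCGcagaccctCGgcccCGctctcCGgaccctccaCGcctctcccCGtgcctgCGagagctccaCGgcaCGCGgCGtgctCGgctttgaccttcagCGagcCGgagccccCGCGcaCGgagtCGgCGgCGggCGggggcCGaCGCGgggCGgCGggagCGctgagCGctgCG
Igf1: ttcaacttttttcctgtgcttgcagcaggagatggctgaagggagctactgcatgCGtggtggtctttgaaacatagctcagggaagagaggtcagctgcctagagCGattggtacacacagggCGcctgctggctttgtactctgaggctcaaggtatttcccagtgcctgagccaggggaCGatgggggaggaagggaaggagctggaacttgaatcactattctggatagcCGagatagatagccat
The Igf1r stretch holds 42 CG dinucleotides in 250 bases, and 0.865% of all windows hold as many over the same 250 bases. The Igf1 stretch holds 5, beside a median of 6 over all windows, and 55.6% of windows hold as many. Neither stretch held an interval. Since 1.80% of all windows overlapped one, these empty stretches cannot tell CG-dense from ordinary starts. The listed Igf1 start lies inside the annotated gene. An Igf1 interval, described below, lay 612 bp before the gene's annotated 5′ end.

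Insr encodes the insulin receptor. The gene spans chromosome 8 from 3150922 to 3279649 in mm10 (gene 16337), 129 kb, and both of its Gm4665 intervals lay inside it; exons and introns could not be separated with the gene table used. The stronger ran from 3175686 to 3179144, a width of 3459 bp beside a list median of 582 bp, with its summit at 3176567. That summit is 25.6 kb from the lower-coordinate end, at 19.9% of the gene's length, so the interval lies at neither gene end. Its folds were 142.9, 130.3 and 65.0 in replicates 1, 2 and 3 (mean 113 ± 41.8, SD, n = 3). Replicates 1 and 2 were close and replicate 3 was the low one.

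The deposited list holds this interval in 4 rows. All 4 give the same position, the same pileup of 418 and the same replicate 1 fold; they pair replicate 2 folds of 130.3 and 8.50 with replicate 3 folds of 65.0 and 11.9. Such repeats made up 383 of 38827 intervals (0.986%) over all sequences, but 21 of the 100 strongest. In all 383 the replicate 1 fold was the same in every row, and in 381 the number of rows equalled the number of distinct replicate 2 folds times the number of distinct replicate 3 folds. The values above, and those below unless stated, keep the highest fold of each replicate. With the lowest kept instead, the Insr mean was 54.4 and its rank 209, and with the mean of the rows 83.6 and rank 14. With the lowest folds, replicate 1 alone was high: replicates 2 and 3 were 1.00 and 1.16 times their list medians. The height at Insr in replicates 2 and 3 thus depends on which of the paired folds is kept.

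The unevenness can be read against the rest of the list. The Insr interval ranked 3 of 38711 in replicate 1, 2 in replicate 2 and 77 in replicate 3, and 6 by the mean. Its replicate 3 fold was 0.455 times its replicate 1 fold, against a list median of 0.918, and 1.80% of intervals had a lower ratio. Among the 100 strongest intervals by mean fold, 1 had a lower ratio and 1 had a larger SD relative to its mean. The replicate 2 to replicate 1 ratio was 0.912, above the list median of 0.758. The interval stood at 12.6, 15.3 and 6.33 times the list median of replicates 1, 2 and 3. With the lowest folds of the repeated rows, its ranks were 3, 18729 and 15683, and its replicate 3 to replicate 1 ratio was 0.0835.

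The folds can also be expressed in steps. Many folds are multiples of a fixed step (0.341, 0.340 and 0.411 in replicates 1, 2 and 3), taken here as on the grid where they fall within 0.01 of a whole step. At Insr they came to 419 steps in replicate 1 and 383 in replicate 2. The replicate 1 step was set from the deposited pileup with 1 added, so 419 steps there stand for a pileup of 418. Step counts are thus not exact read counts. The replicate 3 fold came to 158.18 steps and was not on the grid. MACS2 divides by the larger of a constant and a local background, and a fold off the grid is not a multiple of the constant one. Of the 100 strongest intervals, 60 were on the grid in replicate 3, 48 in replicate 1 and 56 in replicate 2. Over the whole list the shares were 52.5%, 48.1% and 54.8% in the same order, so a fold off the grid is common. The part of the local background in the low replicate 3 fold was not tested. The lower folds in the repeated rows, 8.50 and 11.9, are 25 and 29 steps.

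**Figure D2:**
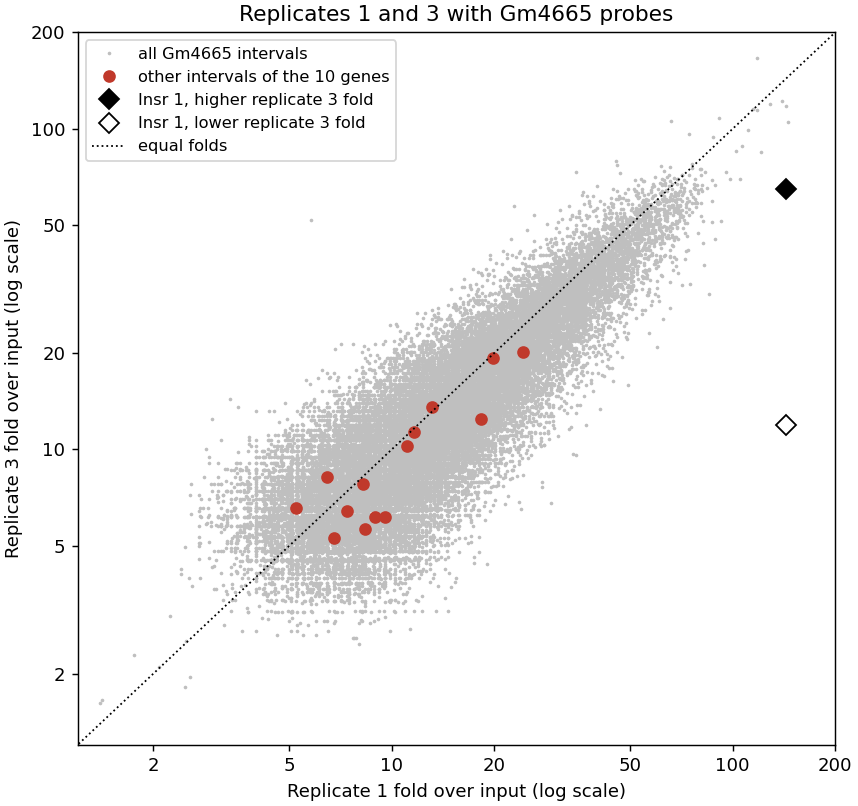
Fold over input in replicate 3 against replicate 1 (both axes logarithmic) for all 38711 Gm4665 intervals (grey), the other 14 intervals of the 10 genes (red) and the strongest Insr interval (black diamonds). The filled diamond uses the higher replicate 3 fold of 65.0 and the open diamond the lower of 11.9; both lie below the dotted line of equal folds.

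The second Insr interval, from 3238903 to 3239789, had folds of 24.2, 13.8 and 20.2 (mean 19.4 ± 5.22, SD, n = 3) and was stronger than 82.7% of the list. The first interval exceeded it 5.90-fold, 9.41-fold and 3.23-fold in replicates 1, 2 and 3, with the highest folds of the repeated rows. With the lowest, the order turned in replicates 2 (8.50 against 13.8) and 3 (11.9 against 20.2). No LacZ interval overlapped either. LacZ probes gave 3 intervals of their own inside Insr, whose mean folds were 12.8 ± 9.25, 14.4 ± 7.52 and 10.9 ± 3.13 (SD, n = 3 each); the nearest began 22350 bp from the stronger Gm4665 interval. Folds of the 2 lists were normalized separately and are not compared as amounts.

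On chromosome 8 the stronger Insr interval was the highest of 1962 Gm4665 intervals, and the next highest had a mean fold of 74.2; with the lowest folds of repeated rows, it ranked 12 there with 54.4. It was the third interval from the start of the chromosome. The 6 other intervals within 500 kb of it had mean folds from 7.10 to 19.4. Its neighbours on either side lay 92547 bp below and 59759 bp above.

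**Figure D3:**
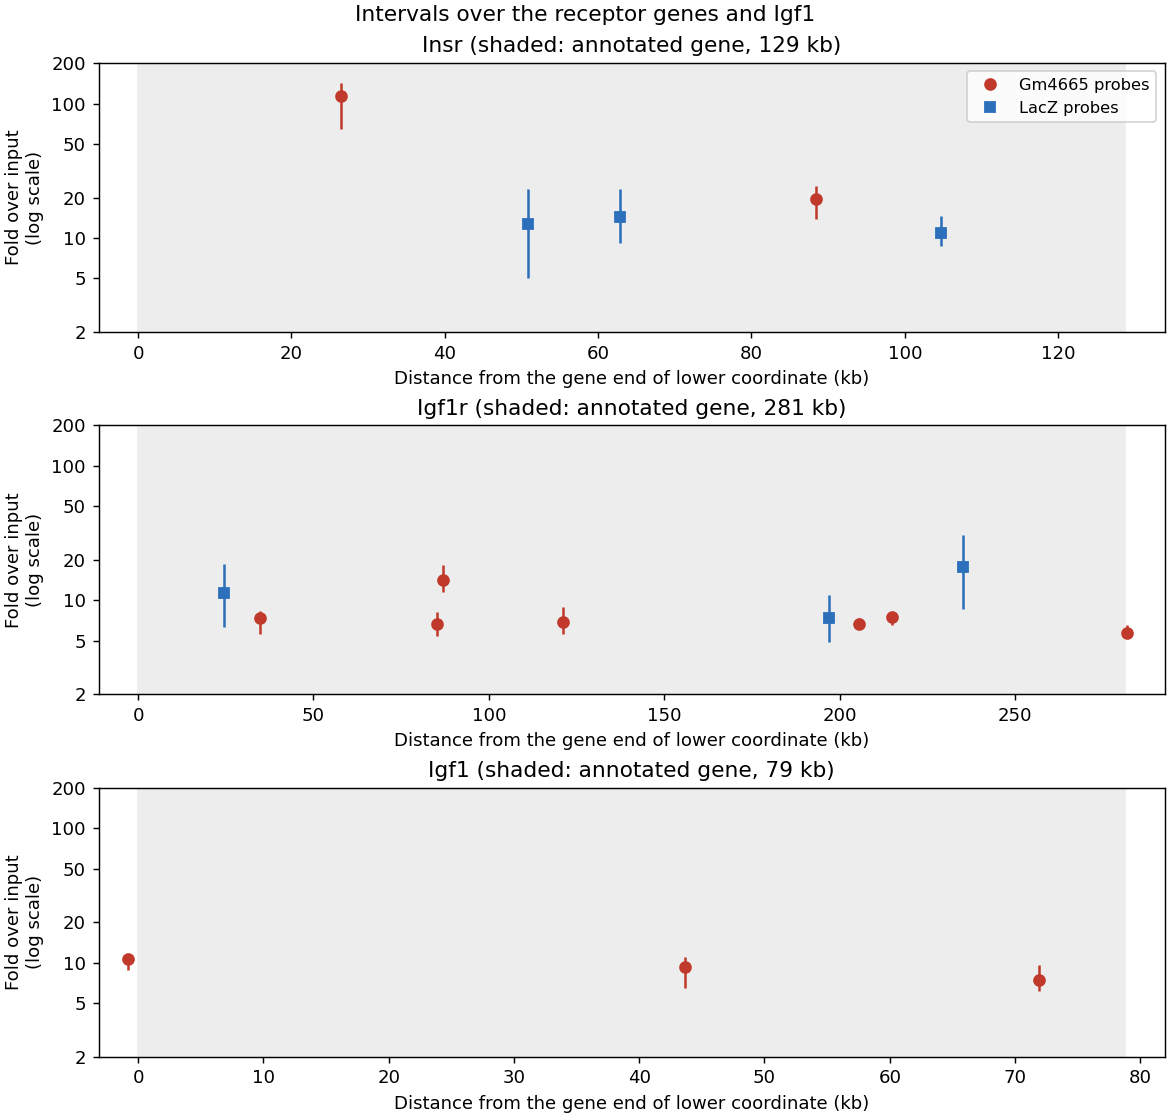
Intervals over Insr, Igf1r and Igf1, plotted as fold over input (log scale) against distance in kb from the gene end of lower coordinate. Points are means of 3 replicates and vertical lines run from the lowest to the highest replicate, for Gm4665 probes (red circles) and LacZ probes (blue squares); one Insr interval stands at 113 with the highest folds of its 4 deposited rows (54.4 with the lowest) and every other mean in the 3 genes is at or below 19.4.

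Intervals of similar height lay in or near genes of other kinds. Directly above Insr by mean fold were Stx11, a syntaxin gene (113 ± 5.23), and an interval 86624 bp from the nearest gene, Gm40601 (116 ± 26.6). Above these was an interval over the probe target Gm4665 and over Osbpl10 (116 ± 14.0; SD, n = 3 each). It was 26100 bp wide and stood in 16 deposited rows, of which the highest folds were kept. Directly below were intervals 2013 bp from Akirin1 (110 ± 33.2), at Gm19143 inside Grin2a (106 ± 16.0) and 112046 bp from Gm34233 (101 ± 9.27; SD, n = 3 each). The 5 intervals nearest to Insr in their 3 log2 folds, by Euclidean distance, lay at Ryr2, near B020018J22Rik, near Gm25090, at Rai14 and near Gm34233. Their distances were 0.76 to 0.86, and their replicate 3 to replicate 1 ratios were 0.664 to 0.894, all above the 0.455 of Insr. The Rai14 interval was 26929 bp wide and stood in 25 deposited rows. Its folds are thus the highest of repeated rows, as at Insr. The intervals near Gm40601 and inside Grin2a stood in 2 rows each and were joined in the same way.

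Igf1r encodes the IGF1 receptor, the closest relative of the insulin receptor, and is the longest of the 10 genes (chromosome 7, 67952257 to 68233668, plus strand, 281 kb). Its 7 Gm4665 intervals had mean folds of 5.75 to 14.1, and 6 of them were below the list median of 9.99. The strongest, from 68038829 to 68039362, had folds of 18.3, 11.5 and 12.5 (mean 14.1 ± 3.70, SD, n = 3). It lies 86572 bp past the listed start, and the neighbouring interval beginning at 68037191 had folds of 6.48, 5.44 and 8.22. The last interval, from 68234050 to 68234332, lay 382 bp past the annotated 3′ end, with folds of 5.24, 5.44 and 6.58. The 638 protein-coding genes of 200 to 400 kb held 4.52 intervals on average, with a median of 4 and quartiles of 3 and 6. Igf1r held more, at 24.5 per Mb beside 17.1 per Mb over autosomal protein-coding genes. The LacZ list held 3 intervals in Igf1r, whose mean folds were 11.4 ± 6.47, 7.43 ± 3.12 and 17.7 ± 11.4 (SD, n = 3 each). At the closest, a LacZ and a Gm4665 interval in Igf1r lay 8141 bp apart, the shortest distance between the lists in the 10 genes.

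Insrr encodes the insulin receptor-related receptor, known as a sensor of alkaline conditions. It had no interval in either list within 2 kb (chromosome 3, 87796908 to 87816101). Its nearest Gm4665 interval lay 33869 bp away with folds of 12.6, 8.90 and 9.35, from 87849970 to 87850399. The nearest LacZ interval, from 87850174 to 87851089, overlapped that one, with folds of 25.3, 12.8 and 16.4. The 3 receptor genes thus had 2, 7 and 0 Gm4665 intervals, at 15.1, 24.5 and 0 per Mb.

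Igf1 encodes the ligand IGF1 (chromosome 10, 87858265 to 87937047, plus strand). Of its 3 Gm4665 intervals, the highest lay just outside the gene, from 87857331 to 87857653. It was 612 bp before the lower-coordinate end, within Igf1os, an annotated lncRNA gene, and 3458 bp from the listed start. Its folds were 11.6, 8.84 and 11.4 (mean 10.6 ± 1.52, SD, n = 3), slightly above the list median. The interval at 87901748 had folds of 11.1, 6.53 and 10.3, and that at 87929742 had 9.55, 6.56 and 6.17. No LacZ interval was listed in Igf1, and the nearest to any of its Gm4665 intervals lay 268549 bp away. This Igf1 interval and the one past the 3′ end of Igf1r were the only 2 of the 15 within 2 kb of a gene end, in 2 of 10 genes, beside 14.2% of protein-coding genes. They are also the only 2 that the 2 kb flanks added to the 13 inside genes. Just beyond the flanks, the closest interval to any member was 7489 bp from Irs2.

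The adaptor genes Irs1 and Irs2 encode the docking proteins that receptors phosphorylate. Neither had an interval in either list. The nearest Gm4665 interval to Irs1 lay 15147 bp upstream of its 5′ end (folds 14.2, 13.6 and 9.05), and the nearest to Irs2 lay past its 3′ end (folds 11.6, 4.79 and 6.81). Their nearest LacZ intervals were 356437 and 32753 bp away.

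Pik3r1 encodes the p85 regulatory subunit of phosphoinositide 3-kinase. Its single Gm4665 interval, on chromosome 13 from 101759582 to 101760613, had folds of 19.8, 10.9 and 19.3 (mean 16.7 ± 5.01, SD, n = 3), above 76.9% of the list. It lies inside the gene, 7604 bp from the nearest listed start. Pik3ca encodes the catalytic subunit p110 alpha, and its interval (chromosome 3, 32423901 to 32424394) had folds of 13.1, 5.44 and 13.6 (mean 10.7 ± 4.57, SD, n = 3). In both genes replicate 2 was the low one. The regulatory and catalytic subunit genes thus had 1 interval each. The fold ranges of the 2 intervals overlapped, but within each replicate the Pik3r1 fold was the higher.

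Akt1 and Akt2 encode the AKT kinases, of which the second is best known for insulin-stimulated glucose uptake. Akt1 had 1 interval, on chromosome 12 from 112665661 to 112666260, with folds of 6.76, 6.03 and 5.28 (mean 6.02 ± 0.742, SD, n = 3), above 10.4% of the list. Akt2 had none; its nearest Gm4665 interval lay 14165 bp past its 3′ end, with folds of 14.0, 9.64 and 9.06. No LacZ interval was listed in Pik3r1, Pik3ca, Akt1 or Akt2.

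**Figure D4:**
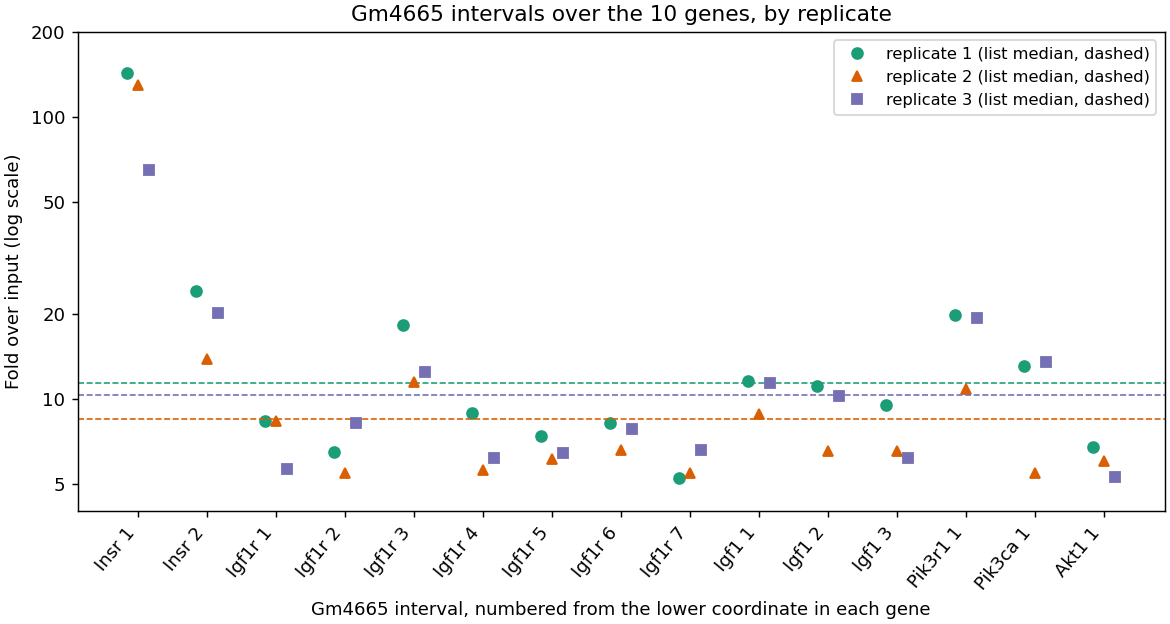
Fold over input (log scale) of each of the 15 Gm4665 intervals over the 10 genes, numbered from the lower coordinate within a gene, in replicates 1 (circles), 2 (triangles) and 3 (squares). Dashed lines are the list medians of the same replicates, 11.4, 8.50 and 10.3; the first Insr interval stands above all others in every replicate as drawn, with the highest folds of its 4 deposited rows, and in replicate 1 alone with the lowest (8.50 and 11.9 in replicates 2 and 3).

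Across the 15 intervals the median of the mean folds was 7.54, beside 9.99 over the list, and 6 of 15 were above the list median: both of Insr, and 1 each of Igf1r, Igf1, Pik3r1 and Pik3ca. By replicate the member medians were 9.55, 6.56 and 8.22. Replicate 1 gave the highest fold at 11 of 15 intervals, and at 56.3% of the list. Median SD relative to the mean was 24.9% over the members and 21.9% over the list. The first Insr interval aside, no member interval had a mean above 19.4.

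LacZ intervals fell in 2 of the 10 genes, Insr and Igf1r, beside 16.9% of protein-coding genes. Both are long: 46.3% of genes of 100 to 200 kb and 72.0% of genes of at least 200 kb had one. Each had 3, beside averages of 0.653 in genes of 100 to 200 kb and 1.22 in genes of 200 to 400 kb. The 6 LacZ intervals all had their highest fold in replicate 1, as did 95.9% of that list. Over the 10 genes LacZ intervals numbered 7.0 per Mb, beside 4.74 per Mb over autosomal protein-coding genes. Without Igf1r the value was 5.24 per Mb, a ratio of 1.11 to that background. None of the 15 Gm4665 intervals overlapped a LacZ interval, beside 0.889% of the whole Gm4665 list, so 0 of 15 is near that background. The LacZ folds at the Gm4665 positions are not in that list and were not analysed here.

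A further 56 genes of insulin and IGF signalling were examined as a list. A Gm4665 interval was present in 30 of 56 (53.6%), beside 39.3% of protein-coding genes and 6 of the 10 members; the median gene length was 38.2 kb in this list, 63.7 kb among the members and 17.2 kb among all protein-coding genes. LacZ intervals lay in 5 of 56 (8.93%), beside 16.9% of protein-coding genes. Per Mb, the spans of this list held 22.2 Gm4665 intervals, beside 17.1 over autosomal protein-coding genes. For LacZ intervals the values were 2.13 and 4.74 per Mb. The median of the strongest mean fold per gene was 14.0, beside 13.3 over the 8564 protein-coding genes with an interval. The ligand genes Ins1, Ins2 and Igf2 had no interval. Igf2r, which encodes the receptor that clears IGF2, had 4, the strongest with folds of 33.1, 22.1 and 17.6 (mean 24.3 ± 7.95, SD, n = 3).

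The highest in the list was at Sos2, which encodes a RAS exchange factor, with folds of 49.8, 42.9 and 46.1 (mean 46.2 ± 3.47, SD, n = 3). The transcription factor genes Foxo3 and Foxo1 had 35.3 ± 6.33 and 21.7 ± 0.899 (SD, n = 3 each). Igfbp2, which encodes an IGF-binding protein, had folds of 48.1, 31.2 and 24.3 at an interval across a gene end. Tsc1, a brake on mTOR signalling, had 34.5 ± 8.05, and Grb2, which encodes the adaptor that brings SOS proteins to receptors, had 21.3 ± 7.22 (SD, n = 3 each). Eif4ebp1, which encodes a translation repressor controlled by mTOR, had folds of 41.3, 27.1 and 17.1.

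**Figure D5:**
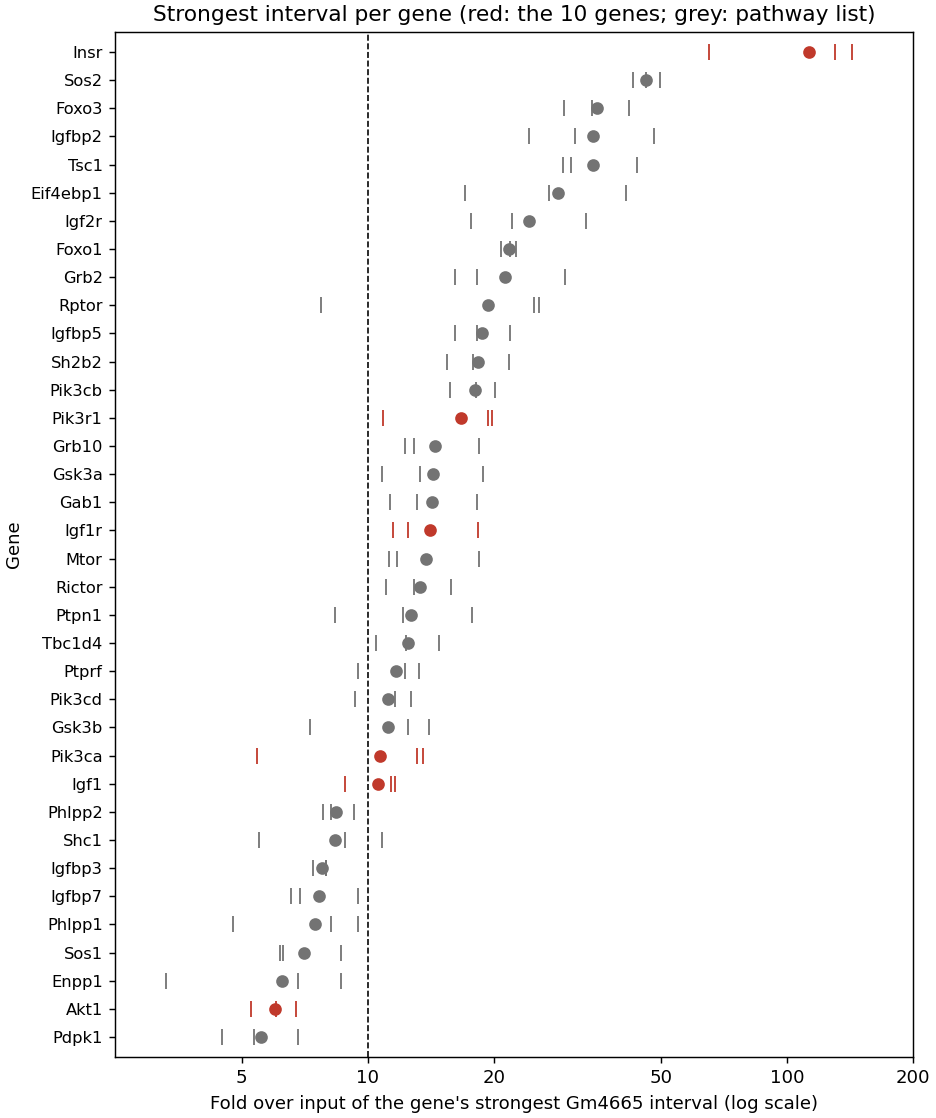
Fold over input (log scale) of the strongest Gm4665 interval of each gene that has one, for 6 of the 10 genes (red) and 30 genes of the pathway list (grey). Circles are means of 3 replicates, ticks are the replicates and the dashed line is the list median of 9.99; Insr at 113 (54.4 with the lowest folds of its repeated rows) lies above Sos2 at 46.2. The line is a median over single intervals, which the strongest of several tends to exceed.

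LacZ intervals in the pathway list were led by Rictor and Mtor, genes of the mTOR complexes, with 30.5 ± 18.6 and 24.0 ± 15.4. Pik3r3, a further regulatory subunit gene, and Tsc2, the partner of Tsc1, followed with 21.3 ± 17.6 and 19.7 ± 10.3 (SD, n = 3 each). Pik3r3 and Tsc2 had no Gm4665 interval, while Rictor had 2 and Mtor had 1. As in the members, replicate 1 was the high one at all 4.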

How the data were processed

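The data are 2 lists of chromatin intervals, 1 for each probe set. The deposited fold enrichment is a linear ratio of capture to input for each of 3 replicates, made by the authors; their file names give MACS2 as the caller, and its version and the aligner were not given in the sources used here. The deposited pileup signal is the coverage at the summit. No replicate was named for the pileup, summit or length. At the stronger and weaker Insr intervals, pileups of 418 and 70 stood beside 419 and 71 steps in replicate 1. Steps there were 383 and 40.72 in replicate 2, and 158.18 and 49 in replicate 3. The replicate 1 step was itself set from the pileup. Whether positions and widths rest on replicate 1 was not tested. The build is mm10, per the submitters' processing notes, and positions are 1-based.

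Repeated rows were joined with the highest fold per replicate. Intervals on chromosomes 1 to 19, X and Y were kept. Genes came from a RefSeq table (GRCm38.p6), leaving out 340 entries taken to carry scaffold coordinates; strand came from RefSeq promoter windows. Counts, means and SDs were computed in Python 3.11.15 with pandas 2.3.3, and overlap counting was tested on simulated intervals. No test was run: members and lists were chosen with earlier results of these data known, and each list has 1 set of positions for all replicates. Named genes are all members, the 8 pathway genes of highest Gm4665 fold and 4 of highest LacZ fold, intervals ranked 3 above to 3 below Insr, and the 5 of most similar folds. Genes without an interval were named as members or after their values were seen. One pathway gene of the planned list is not reported here. Alternatives changed the flank, fold minimum, overlap rule, repeats and replicates.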

Additional observations from a re-analysis of the deposited data

How the results depend on the processing

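Joining repeated rows by their lowest or mean fold, and leaving out Igf1r, were chosen after seeing the data. The mean fold at Insr was 97.7 to 137 without each replicate in turn and 130 as a median. It was 54.4 with the lowest fold of repeated rows kept, since 2 replicates then take their smaller values. Its rank of 6 was 8, 9 and 1 without replicate 1, 2 and 3, each with the highest folds of repeated rows. With all replicates, its rank was 209 with the lowest folds and 14 with the mean of the rows. Whether it leads the list thus depends on both the replicates and the rows kept. Member genes with a Gm4665 interval stayed at 6 except with 10 kb flanks, where Irs2 made 7; those with a LacZ interval stayed at 2 in every alternative run. The pathway count of 30 was 29 to 38, the highest with 10 kb flanks. No share of all protein-coding genes is given for 10 kb flanks, so the counts of 7 and 38 have no background here. The ratio of member to protein-coding density was 0.820 to 1.07. No paired analysis was possible because no result comes from a test between groups. Depth was known only through fold steps.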
